A study of Homo sapiens with 8 samples.

Results

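Integrins are membrane receptors made of an alpha and a beta subunit, and focal adhesion proteins join them to actin inside the cell. The genes described here were 34 named integrin and focal adhesion genes plus every gene whose symbol was ITGA or ITGB followed by a number or by V, L, M, X, E or D. Of the 34 named genes 30 were measured, and the symbol form added 8, giving 38 genes of the 11963 measured and 75 of the 22215 probe sets tested. BCAR1, FLNA, FLNC, LIMS1, ITGA11, ITGAD and ITGB6 had no probe set assigned to them alone and are not analysed here. Each gene was read from its brightest probe set, and all probe sets of a gene were compared where they differed.

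The RNA came from SH-SY5Y, an established cell line from a human neuroblastoma, a tumour of the sympathetic lineage. Cells carried either a stable RNAi construct against DJ-1, the redox-responsive Parkinson disease protein encoded by PARK7, in clones B and G, or a scrambled control construct in clones H and M. Each clone was hybridised to 2 Affymetrix arrays, numbered replicate 1 and replicate 2, so each condition had 4 arrays and only 2 clones. Whether duplicates came from separate cultures is not stated in the labels, so the spread between duplicates may be technical. P-values for knockdown against control rest on the spread among the 4 arrays of a condition, which includes the difference between its 2 clones. Those for one clone against another rest on the spread between duplicates alone. The precision of every value is limited by the 8 arrays. PARK7, the targeted gene, read 10.05 to 10.45 in knockdown arrays and 12.95 to 13.14 in control arrays on the log2 signal scale. Noradrenergic neuroblast markers were bright, with 11 of 12 measured genes at or above the median level of all probe sets (8.06).

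An integrin binds matrix proteins such as laminin, collagen and fibronectin outside the cell, and the pairing of its alpha and beta subunits sets which of them it binds. Talin and kindlin bind the beta tail and switch the receptor on, while vinculin, tensin and alpha-actinin connect it to actin filaments. Focal adhesion kinase, paxillin and integrin-linked kinase then pass the signal on. In neuroblasts these contacts serve migration and neurite outgrowth.

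The first comparison asked how these genes differed between the DJ-1 knockdown and control clones. ITGB1, TNS3 and TGFB1I1 fell, and no gene of the 38 rose. ITGB1 encodes the beta 1 subunit, the partner of most alpha subunits, TNS3 the actin linker tensin 3, and TGFB1I1 the paxillin relative Hic-5. The 3 called genes make 7.89% of the 38, beside 2.96% of all probe sets called in either direction, 1.43% called lower, and 3.14% of all genes called on their brightest probe set. The difference was below 0 for 33 of the 38 genes, beside 49.3% of all probe sets and 49.8% of all genes on their brightest probe set. The median difference of the 38 was -0.12 on the log2 scale, beside 0.0029 over all probe sets, and the range was -1.92 to 0.16. At an unadjusted limma p under 0.05 there were 13 genes, all 13 lower in knockdown, beside 4428 of the 22215 probe sets in either direction. Later counts at this p for the knockdown difference in smaller groups of genes stand beside the same share. The highest knockdown array was below the lowest control array for 6 genes (ITGB1, ITGB5, TNS3, TNS1, TGFB1I1 and ZYX), while 5.03% of all probe sets were separated that way. No gene of the 38 was separated in the other direction, against 6.68% of all probe sets.

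**Figure D1:**
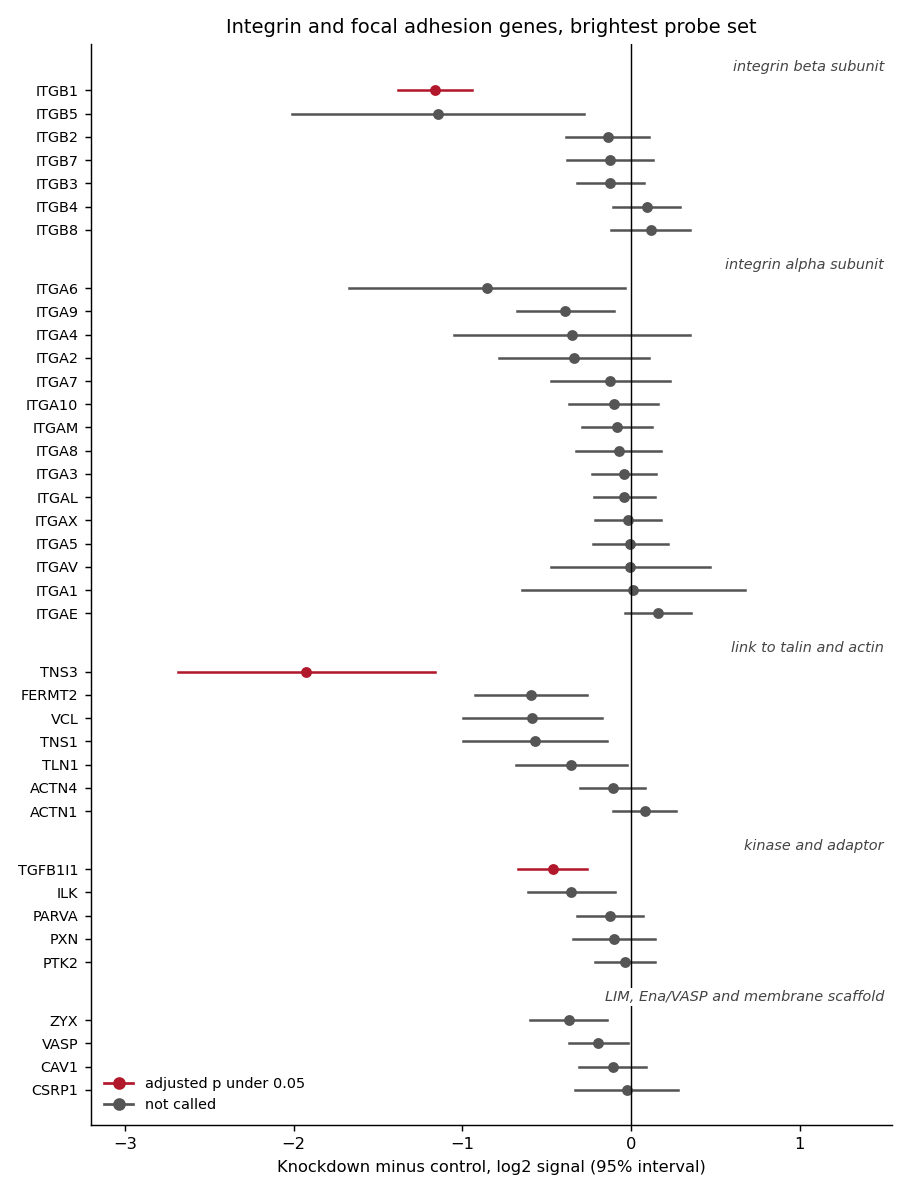
Knockdown minus control difference in log2 signal (horizontal axis) for the brightest probe set of each of the 38 genes, grouped by role, with points for the difference, bars for the 95% confidence interval from limma, and red for adjusted p under 0.05. ITGB1 (-1.16), TNS3 (-1.92) and TGFB1I1 (-0.46) are the red points, and 33 of 38 points lie left of 0.

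The beta subunits differed widely among themselves. ITGB1 was the brightest of the 38 genes, at the 97.7th percentile of all probe sets. Its log2 signal was 12.09 and 11.84 in clone B and 12.17 and 12.05 in clone G, against 13.04 and 13.09 in clone H and 13.26 and 13.42 in clone M. The 4 knockdown arrays were all low and the groups did not overlap. ITGB1 fell by 1.16 (SE 0.097), 2.24-fold, from 13.20 ± 0.17 to 12.04 ± 0.14 (SD, n = 4 arrays each; limma adjusted p = 0.00102). Each knockdown clone was below each control clone, with differences from -0.95 for G against H to -1.38 for B against M. With clone means as the unit, the ITGB1 difference had limma adjusted p = 0.0661, and only 1 of the 22215 probe sets passed. Of the other 4 ITGB1 probe sets, all at or below the 6.36th percentile, 1 fell by 0.39 (limma adjusted p = 0.0367) and 3 differed by -0.10, -0.10 and 0.02. The median over the 5 probe sets differed by -0.30 (limma adjusted p = 0.0525).

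ITGB5, the beta 5 subunit that pairs with alpha V to bind vitronectin, read 8.07 and 8.50 in clone B, 8.27 and 8.52 in clone G, 8.62 and 8.75 in clone H, and 10.26 and 10.32 in clone M. Clone M stood far above the other 3 clones, and clone H lay just above the knockdown clones. The knockdown difference of -1.15 (SE 0.385) did not pass (limma adjusted p = 0.147). Against clone H alone clones B and G differed by -0.40 and -0.29, and against clone M alone by -2.00 and -1.89. The remaining beta genes lay between -0.14 and 0.12. They were ITGB2 (-0.14) and ITGB7 (-0.12), subunits of leukocyte integrins, ITGB3 (-0.12), of the platelet and vitronectin receptors, ITGB4 (0.09), the laminin-receptor subunit of hemidesmosomes, and ITGB8 (0.12), known for activating latent TGF-beta.

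None of the 15 alpha subunit genes was called by limma, at a median difference of -0.07, with 13 of 15 below 0, and 2 had an unadjusted p under 0.05. ITGAV, whose alpha V subunit pairs with several beta subunits including beta 1 and beta 5, stood at the 87.1st percentile. Its signal was 11.19 and 10.30 in clone B, 10.87 and 10.41 in G, 10.86 and 10.21 in H, and 10.72 and 10.99 in M. The groups overlapped throughout, and the difference was -0.0028, with a 95% interval from -0.47 to 0.47. ITGAE, the alpha E subunit of a lymphocyte receptor for E-cadherin, was the brightest alpha gene at the 91.1st percentile and had the highest difference of the 38 genes, 0.16 (limma adjusted p = 0.339).

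Other alpha partners of beta 1 had differences closer to 0 than that of ITGB1, and none was called. The largest was that of ITGA6, -0.86 (limma adjusted p = 0.233). ITGA4 (-0.35) and ITGA2 (-0.34) were also below 0, and these genes are described by clone further below. ITGA5, of the fibronectin receptor, read 7.98 to 8.22 in knockdown and 7.96 to 8.29 in control arrays. ITGA3, of a laminin receptor, differed by -0.04 and ITGA7, another laminin-receptor subunit, by -0.12. ITGA9, which binds tenascin and related ligands, read 7.44, 7.08, 7.51 and 7.08 in knockdown arrays and 7.86, 7.42, 7.67 and 7.70 in control arrays. These groups overlapped slightly, and the difference of -0.39 did not pass (limma adjusted p = 0.139). ITGA10 (-0.10) and ITGA8 (-0.07), a collagen-receptor and an RGD-receptor subunit, and the leukocyte genes ITGAM (-0.08), ITGAL (-0.04) and ITGAX (-0.02) all lay below the median level and were not called.

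The 7 genes that link integrins to talin and actin had a median difference of -0.57. Of these 6 were below 0, 5 at an unadjusted limma p under 0.05, and 1 was called. TNS3 had the largest difference of the 38 genes. Its signal was 8.79 and 7.88 in clone B and 9.30 and 8.11 in clone G, against 10.07 and 9.98 in clone H and 10.48 and 11.25 in clone M. The knockdown arrays were all lower, and replicate 2 minus replicate 1 was -0.91 in clone B and -1.20 in clone G. TNS3 fell by 1.92 (SE 0.339), 3.79-fold, from 10.44 ± 0.58 to 8.52 ± 0.65 (SD, n = 4 arrays each; limma adjusted p = 0.022). The call was lost without array B1 (limma adjusted p = 0.0598), B2 (0.14) or G2 (0.0677), and with clone means as the unit (0.0929). The array has a single TNS3 probe set, so no second reading was made.

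TNS1, the tensin 1 gene, had 5 probe sets that disagreed in size. The brightest read 8.46, 8.38, 8.22 and 8.34 in knockdown arrays and 8.79, 8.63, 8.65 and 9.59 in control arrays, a difference of -0.57 (limma adjusted p = 0.147). The next, at nearly the same level, read 8.41, 7.44, 8.20 and 7.47 against 9.15, 8.67, 9.69 and 9.94. That probe set fell by 1.48 (SE 0.299), 2.79-fold, with limma adjusted p = 0.0352, and a dimmer one fell by 0.92 (adjusted p = 0.0371). Another 2 differed by -0.57 and -0.14 and were not called. Control arrays lay above knockdown arrays on all 5.

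FERMT2, which encodes kindlin-2, read 11.86, 11.52, 11.69 and 11.57 in knockdown arrays and 12.30, 11.77, 12.51 and 12.42 in control arrays. Only array H2 reached into the knockdown range. The difference of -0.59 (SE 0.148) had limma adjusted p = 0.07 (0.0529 in the paired fit), and the other 2 probe sets differed by -0.69 and -0.73. VCL, the vinculin gene, differed by -0.58 (limma adjusted p = 0.126), with knockdown arrays at 10.34, 10.13, 10.33 and 10.08 and control arrays at 10.69, 10.31, 10.89 and 11.33. TLN1, encoding talin 1, differed by -0.35 (adjusted p = 0.226). The alpha-actinin genes ACTN1 and ACTN4 differed by 0.08 and -0.11, with 95% intervals from -0.11 to 0.27 and from -0.30 to 0.08.

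**Figure D2:**
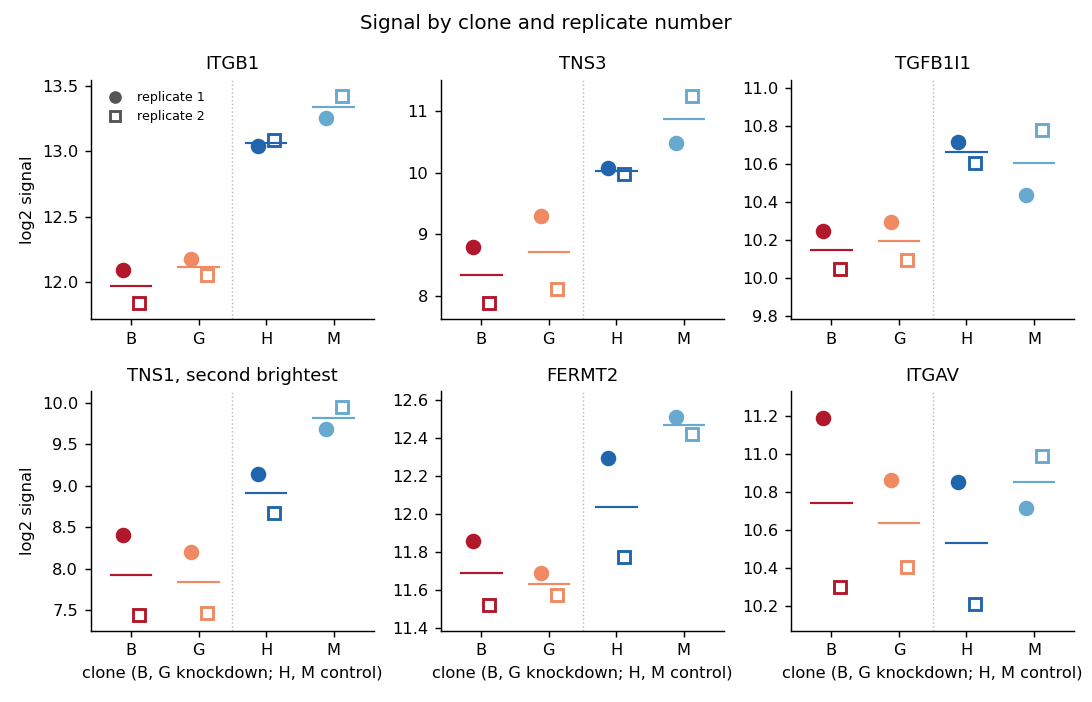
Log2 signal (vertical axis) on each array by clone, with circles for replicate 1, squares for replicate 2 and lines for clone means, for ITGB1, TNS3, TGFB1I1, the second brightest TNS1 probe set, FERMT2 and ITGAV. Knockdown clones B and G lie below control clones H and M for the first 4 of these, FERMT2 overlaps through array H2, and ITGAV overlaps throughout.

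Among the kinases and adaptors all 5 differences were below 0 and 1 was called. TGFB1I1 read 10.24 and 10.05 in clone B and 10.29 and 10.09 in clone G, against 10.71 and 10.60 in clone H and 10.43 and 10.78 in clone M. The groups did not overlap, with 10.29 the highest knockdown and 10.43 the lowest control array. TGFB1I1 fell by 0.46 (SE 0.091), 1.38-fold, from 10.63 ± 0.15 to 10.17 ± 0.12 (SD, n = 4 arrays each; limma adjusted p = 0.0325). The call was lost without any array of clones B or G (limma adjusted p from 0.0667 without G1 to 0.226 without B2) and with clone means as the unit (0.0994). ILK, encoding integrin-linked kinase, differed by -0.35 (limma adjusted p = 0.138), and its partner gene PARVA, for alpha-parvin, by -0.12. PXN, the paxillin gene, differed by -0.10. PTK2, encoding focal adhesion kinase, was bright at 10.82 to 11.07 in knockdown and 10.84 to 11.10 in control arrays, and its difference was -0.04, with a 95% interval from -0.21 to 0.14.

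The last role held LIM, Ena/VASP and membrane scaffold genes, with 4 of 4 differences below 0 and none called on its brightest probe set by limma, 2 having an unadjusted p under 0.05. ZYX, encoding the LIM protein zyxin of mature adhesions, read 9.38, 9.44, 9.57 and 9.52 in knockdown arrays and 9.96, 9.68, 9.68 and 10.07 in control arrays. The groups did not overlap, and the difference was -0.37 (limma adjusted p = 0.0877). Its other probe set read 8.55, 8.45, 8.72 and 8.51 against 9.15, 8.80, 9.09 and 9.38, and fell by 0.55 (adjusted p = 0.0443). VASP, an actin filament elongation factor, differed by -0.19 (limma adjusted p = 0.212), and CSRP1, a LIM protein of actin bundles, by -0.02. CAV1, the caveolin-1 gene, differed by -0.11 at the 10.5th percentile of signal.

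Counted over all 75 probe sets of the 38 genes, 59 differences were below 0, 7 probe sets were called lower and none higher by limma. The 7 belonged to ITGB1 (2), TNS1 (2), TNS3, TGFB1I1 and ZYX. The 20 genes at or above the median level had a median of -0.27 and all 3 calls. The 18 dimmer genes had a median of -0.11 and no limma call, 2 of them having an unadjusted p under 0.05. Low signals could not be separated from background, since no detection calls were used. In bulk RNA, fewer cells of a type and less RNA per cell cannot be told apart.

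**Figure D3:**
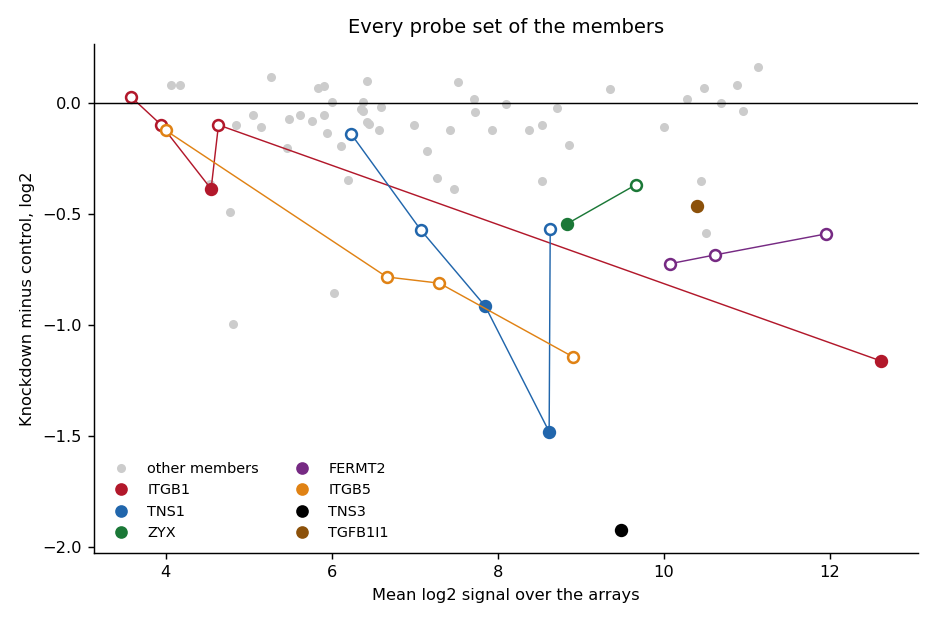
Knockdown minus control difference in log2 signal (vertical axis) against mean log2 signal over the arrays (horizontal axis) for all 75 probe sets, with lines joining probe sets of one gene, filled coloured points for adjusted p under 0.05, open coloured points for uncalled probe sets and grey for other genes. ITGB1 shows its difference of -1.16 on its bright probe set, while the 2 TNS1 probe sets of nearly equal level lie at -0.57 and -1.48.

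The start-site sequences of the 3 called genes are shown because these genes were lower on the same arrays. The 300-base windows, 250 bases before to 50 after an annotated start, are from RefSeq (GRCh38.p14), and 28 of the 38 genes had 50 of them. For each gene the window with the most kinds of motif is shown 5′ to 3′ on the gene's strand. Capitals mark GC boxes (GGGCGG or CCGCCC), a TEAD motif (CATTCC or its reverse complement) and the CArG box bound by serum response factor.
ITGB1, chr10:32958181-32958480, minus strand: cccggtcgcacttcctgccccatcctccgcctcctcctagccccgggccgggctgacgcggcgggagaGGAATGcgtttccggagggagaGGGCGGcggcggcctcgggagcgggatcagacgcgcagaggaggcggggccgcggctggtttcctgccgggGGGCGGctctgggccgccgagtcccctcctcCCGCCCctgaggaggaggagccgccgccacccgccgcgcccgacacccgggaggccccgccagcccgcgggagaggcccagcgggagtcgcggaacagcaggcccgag
TNS3, chr7:47582062-47582361, minus strand: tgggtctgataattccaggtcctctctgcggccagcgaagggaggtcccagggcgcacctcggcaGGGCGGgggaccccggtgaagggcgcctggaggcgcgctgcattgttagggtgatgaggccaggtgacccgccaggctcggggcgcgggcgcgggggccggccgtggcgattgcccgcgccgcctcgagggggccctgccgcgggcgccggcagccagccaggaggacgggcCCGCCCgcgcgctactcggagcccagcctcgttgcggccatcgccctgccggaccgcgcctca
TGFB1I1, chr16:31472955-31473254, plus strand: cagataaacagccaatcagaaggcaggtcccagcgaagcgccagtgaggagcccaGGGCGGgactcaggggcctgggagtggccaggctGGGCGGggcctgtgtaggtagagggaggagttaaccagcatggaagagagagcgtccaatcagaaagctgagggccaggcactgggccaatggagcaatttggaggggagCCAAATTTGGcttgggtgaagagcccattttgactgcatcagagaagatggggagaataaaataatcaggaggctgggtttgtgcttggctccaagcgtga

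The ITGB1 window held 3 GC boxes and 1 TEAD motif, the TNS3 window 2 GC boxes, and the TGFB1I1 window 2 GC boxes and 1 CArG box. These windows were picked for their motifs. The 3 called genes had 8 windows, of which 5 held a GC box, 1 a TEAD motif and 1 a CArG box. Their windows without a GC box, from ITGB1 and TNS3, held none of these motifs. With motifs searched on both strands, a GC box stood in 62.0% of the 50 windows and in 44.9% of all 34796 promoter windows. A TEAD motif stood in 9 of the 50 windows (18.0% against 14.0%). A CArG box stood in 2 (4.0% against 1.3%), and an AP-1 motif (TGANTCA) in 2 (4.0% against 7.73%). The 50 windows came from 28 genes, and some windows of the same gene overlapped. The median GC content was 68.7% in these windows and 58.7% in all, and a match is a string of letters, not a shown binding site.

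Same-numbered arrays deviated together across clones, and fits with the replicate number as a replicate block bear on the calls above. With the replicate block 2 of the 38 genes were called, beside 3.35% of all probe sets. ITGB1 (limma adjusted p = 0.00251) and TNS3 (0.0377) passed, and TGFB1I1 did not (0.0633). Of the 75 probe sets 5 were called, with the second ZYX probe set lost (0.07). Within replicate 1, ITGB1 differed by -1.02, TNS3 by -1.23 and TGFB1I1 by -0.31, and within replicate 2 by -1.31, -2.62 and -0.62. The difference between these 2 effects was not called for any gene of the 38 or any probe set (0.0% of 22215, limma). At an unadjusted p under 0.05 it held 3 of the 38 genes and 1901 probe sets. The 3 were TNS3 (-1.39, limma adjusted p = 0.529), ITGA1 (-0.80) and ITGA7 (-0.52).

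The second comparison asked how far the 2 control clones differed from each other. Clone H was below clone M for 31 of the 38 genes, beside 48.7% of all probe sets. The median difference was -0.18, beside 0.0063 over all probe sets. ITGB5, ITGA6 and ITGA2 were called lower in H and none higher, which is 7.89% of the genes beside 1.05% of all probe sets, and 0.855% lower in H. ITGB5 was lower in H by -1.60 (SE 0.17), 3.04-fold, with limma adjusted p = 0.0106. ITGA6, the laminin-receptor subunit alpha 6, read 5.74 and 5.70 in H and 6.89 and 7.49 in M, with knockdown arrays from 5.38 to 5.86. Clone M alone was high, and H minus M was -1.47 (SE 0.221, limma adjusted p = 0.0325). Its second probe set repeated this, at 4.25 and 4.43 in H and 6.16 and 6.42 in M (-1.95, adjusted p = 0.000947). The 2 ITGA6 probe sets were dim, at the 19.5th and 7.66th percentiles of signal. ITGA2, the collagen-receptor subunit alpha 2, read 7.06 and 7.01 in H and 7.82 and 7.87 in M, with knockdown arrays from 7.05 to 7.13. H minus M was -0.81 (SE 0.108, limma adjusted p = 0.0204). With the replicate block 5 genes were called, beside 6.92% of all probe sets, adding CSRP1 (-0.49, limma adjusted p = 0.0231, against 0.137 without it) and ITGA4 (-0.86, 0.0047 against 0.403). The limma count was 0 without array H1, H2 or M2, when 2319, 1817 and 2675 of all probe sets had an unadjusted p under 0.05, and 1 without array G1 or G2.

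The control clone chosen thus moved the size of the knockdown difference for many of these genes. The following clone pairs were compared after the data were seen, and the pairs share clones. TNS3 differed by -1.69 (B) and -1.32 (G) against clone H, and by -2.53 and -2.16 against clone M. FERMT2 differed by -0.35 and -0.40 against H, and by -0.78 and -0.84 against M. VCL differed by -0.27 and -0.29 against H, and by -0.88 and -0.90 against M. ITGA2 differed by 0.08 and 0.05 against H, and by -0.73 and -0.76 against M. TGFB1I1 differed about equally against both, by -0.51 and -0.47 against H and by -0.46 and -0.41 against M. With clone H left out, so that clone M alone stood for the controls, 18 of the 38 genes were called lower by limma, while 39.1% of all probe sets were then called. With clone M left out, 6 were called, beside 9.53% of all probe sets, namely ITGB1, TNS3, TGFB1I1, FERMT2, TNS1 and ZYX. Leaving out array H2 alone gave 14 genes, beside 16.9% of all probe sets. Leaving out clone B or clone G left ITGB1 alone (limma adjusted p = 0.0485 and 0.0307), beside 0.0585% and 0.099%. ITGB1 was also the only gene called without array B1, B2 or G2, beside 1.01%, 0.311% and 0.932% of all probe sets.

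The knockdown clones were close to each other. Clone G minus clone B split 19 and 19 around 0 over the 38 genes, with a range of -0.21 to 0.37. None was called by limma or had an unadjusted p under 0.05, beside 0.0045% of all probe sets called.

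**Figure D4:**
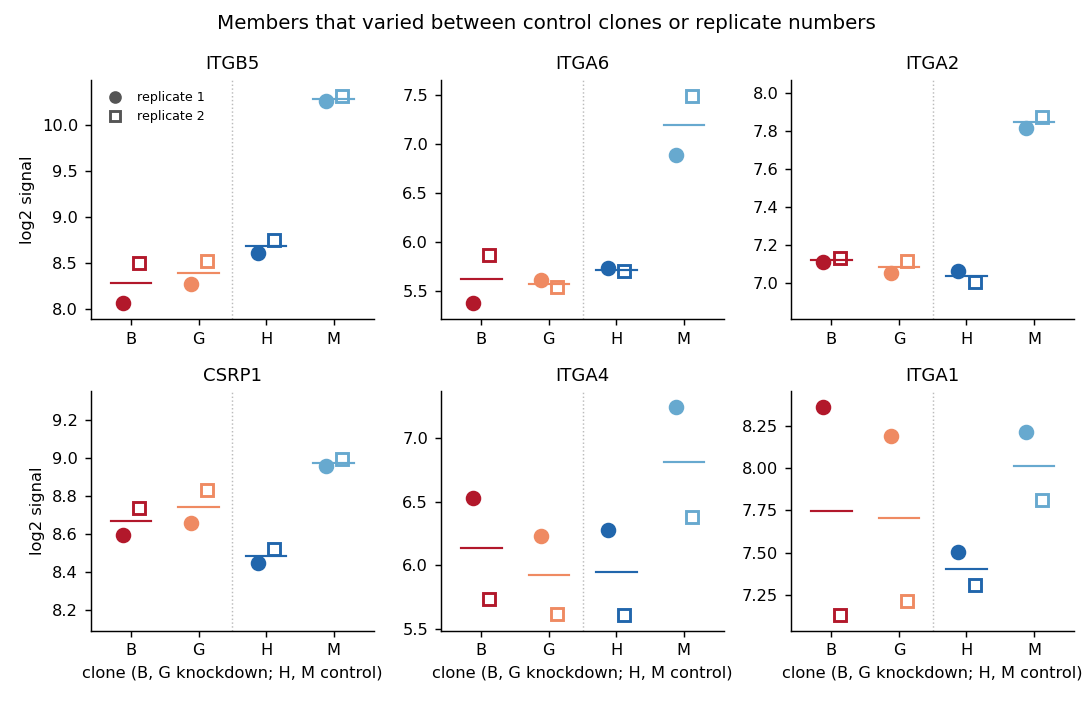
Log2 signal (vertical axis) on each array by clone, with circles for replicate 1, squares for replicate 2 and lines for clone means, for ITGB5, ITGA6, ITGA2, CSRP1, ITGA4 and ITGA1. Clone M stands above the other clones for ITGB5, ITGA6 and ITGA2, and replicate 2 lies below replicate 1 in every clone for ITGA4 and ITGA1.

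The third comparison set replicate 2 against replicate 1 across all clones. ITGA4 and ITGA1 were called lower in replicate 2, so 2 of 38 genes stood beside 13.4% of all probe sets called and 8.76% called lower. ITGA4, the alpha 4 subunit that binds VCAM-1 and fibronectin, went from 6.53 to 5.74 in clone B, 6.23 to 5.61 in G, 6.27 to 5.61 in H and 7.24 to 6.38 in M. The mean difference was -0.73 (SE 0.078), 1.66-fold, with limma adjusted p = 0.003, at the 21.8th percentile of signal. The other 2 ITGA4 probe sets were also called, at -0.81 and -0.53, but were dim, at the 7.31st and 5.52nd percentiles. ITGA1, a collagen-receptor subunit, went from 8.36 to 7.13 in B, 8.19 to 7.22 in G, 7.50 to 7.31 in H and 8.22 to 7.81 in M. Its replicate difference was -0.70 (SE 0.162, limma adjusted p = 0.0277), larger in both knockdown clones than in either control clone. Its knockdown difference was 0.01, with a 95% interval from -0.64 to 0.67. Without array M1 or M2 the count of called genes was 9, beside 16.4% and 16.3% of all probe sets. It was 1 without any single array of clones B or G, beside 3.44% to 4.43%.

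The adhesion pathway around these genes was followed in 4 further lists, chosen with earlier results of these data known. Their counts stand beside 3.14% of all genes called on the brightest probe set and 49.8% below 0. Every gene called in these lists lost its call with clone means as the unit and without clone B or clone G. The same held within replicate 1 or 2 alone. Of all probe sets, 0.0045% were called with clone means, 0.0585% without clone B and 0.099% without clone G. Within replicate 1 and 2 alone these shares were 0.081% and 0.0045%. Of 40 other focal adhesion genes 32 were measured, and 24 differences were below 0 and 4 called. FERMT1 (-0.46) and PDLIM5 (-1.01) fell, while TLN2 (0.53) and PDLIM7 (1.04) rose. Over the alternatives run, FERMT1 ranged from -0.55 to -0.37 and PDLIM5 from -1.30 to -0.90. TLN2 ranged from 0.44 to 0.66, and PDLIM7 from 0.21 to 1.14. FERMT1 was called in 7 of 20 alternatives, TLN2 in 12 of 21, PDLIM7 in 15 of 21 and PDLIM5 in 16 of 21. PDLIM5, a PDZ and LIM protein of actin filaments, read 10.29 to 10.54 in knockdown and 11.08 to 11.53 in control arrays (limma adjusted p = 0.00291). Talin 2, from TLN2, read 9.34 to 9.51 in knockdown and 8.68 to 9.08 in control arrays (adjusted p = 0.0212), whereas TLN1 was uncalled with the opposite sign. Kindlin-1, from FERMT1, had limma adjusted p = 0.047, and 0.0543 once the replicate block was added. SORBS2, an adaptor of the vinexin family, differed by 1.68, at limma adjusted p = 0.0696, and passed in the paired fit (0.0159).

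Of the adhesion kinases and adaptors 27 of 31 were measured, with 12 differences below 0, 2 genes called and a median of 0.04. PIK3R1, a regulatory subunit of PI3-kinase, rose by 1.15 (limma adjusted p = 0.02) and SOS1, a Ras exchange factor, by 0.36 (0.0269). ARHGEF6 (-0.59) and ELMO1 (-0.48), both of Rac activation, were not called, and the ARHGEF6 difference of H minus M was -1.34 (limma adjusted p = 0.0361).

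Integrin partners and trafficking genes had 29 of 30 measured, 18 below 0 and 1 called. RAB21, a small GTPase that carries beta 1 integrins through endosomes, fell by 0.95 (SE 0.093), from 9.06 to 9.43 in control arrays to 8.24 to 8.42 in knockdown arrays (limma adjusted p = 0.00212). The tetraspanin gene CD9 differed by -0.95 (0.205) and the syndecan gene SDC4 by -0.49 (0.113), neither called. Of the matrix ligands 33 of 36 were measured, with 25 below 0, 2 called and a median of -0.25. LAMC1, the laminin gamma 1 chain, fell by 0.94 (limma adjusted p = 0.0094), and LAMA5, a laminin alpha chain, by 0.66 (0.0381, and 0.061 with the replicate block). The basement membrane collagen genes COL4A1 (-1.21, limma adjusted p = 0.0768) and COL4A2 (-0.52, 0.238) passed in the paired fit (0.0457 and 0.0459), and were named after their values were seen. COL3A1 (-1.89), NID1 (-1.32) and FBN1 (-1.32) were not called.

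Markers of mesenchymal cells and fibroblasts moved with the same arrays. Their mean level over 18 measured genes of 18 was 8.00, 7.37, 7.91 and 7.58 in B1, B2, G1 and G2, 8.08 and 7.74 in H1 and H2, and 8.76 and 8.91 in M1 and M2. Of the 18, 17 were below 0 in knockdown at a median of -0.52, none called by limma, with an unadjusted p under 0.05 for 4, and a median of -0.61 for H minus M. VIM, TWIST1, THY1 and PDGFRA were among the 9 at or above the median level, while PRRX1, POSTN, YAP1 and CD44 were at or below the 19.4th percentile. The mean level of the 38 integrin and focal adhesion genes was 8.16 to 8.28 in clones B and G, 8.43 and 8.28 in H1 and H2, and 8.58 and 8.70 in M1 and M2. The part of these markers in the results was not tested. Mean levels of 12 noradrenergic markers were 12.21 to 12.36 in knockdown and 11.88 to 12.22 in control arrays, and those of 6 Schwann and melanocytic markers 6.66 to 6.75 and 6.76 to 7.04. Leukocyte markers had 1 of 11, and epithelial and endothelial or platelet markers 0 of 8 each, at or above the median level, with median knockdown differences of -0.07, -0.05 and -0.02.

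**Figure D5:**
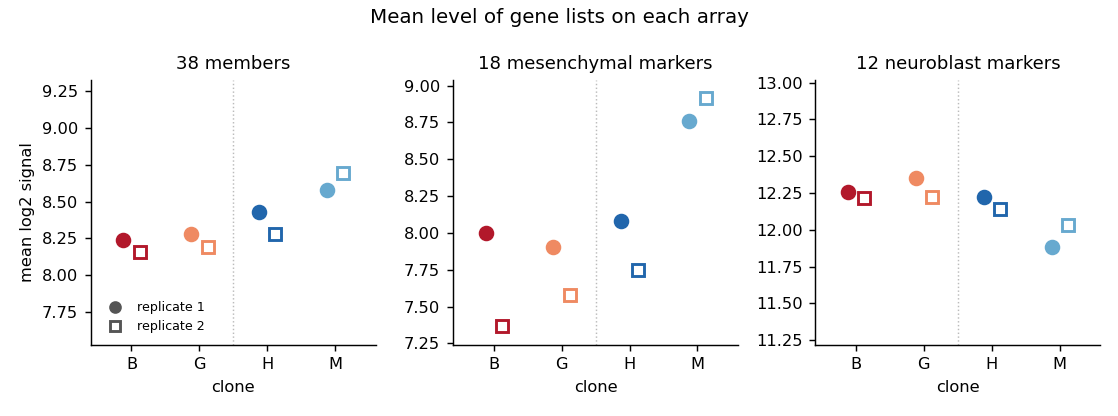
Mean log2 signal (vertical axis) on each array by clone for the 38 integrin and focal adhesion genes, 18 mesenchymal and fibroblast markers and 12 noradrenergic neuroblast markers, with circles for replicate 1 and squares for replicate 2. The first and second panels are highest in clone M, and the third is lowest in clone M.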

How the data were processed

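Total RNA of 4 SH-SY5Y clones was measured on 8 Affymetrix arrays. The deposited table holds log2 signals per probe set, as its range of values shows. It came from GCOS and RMA, per the submitters' processing notes; no version is given in the sources used here. RMA forces all arrays to one distribution, which would hide a shift common to most genes and can compress large differences. Array medians lay between 8.03 and 8.08.

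Of 22277 probe sets, 62 controls were left out. Array annotation gave 19064 probe sets 1 gene, 1043 several and 2108 none, and 19052 were matched to RefSeq symbols. The model was limma 3.58.1 under R 4.3.3 (lmFit, trended eBayes, two-sided), with clone as a random block (duplicateCorrelation, statmod 1.5.0, consensus correlation -0.068) and Benjamini-Hochberg adjustment over 22215 probe sets at 0.05. "Called" means adjusted p under 0.05. The correlation within clones was negative, and the clone block did not make calls stricter. For knockdown against control, 657 probe sets were called with the block, 489 without it and 1 with clone means as the unit. The block thus did not guard against treating arrays of a clone as independent. Adding the replicate block to this fit changed the correlation to 0.235. Clones were compared in a fit with 1 mean per clone, and replicate numbers in a fit with clone as a fixed factor.

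The members, the lists, the tests and the rule for naming genes were chosen with earlier results of these data known. Every member was named, and from each other list the called genes and the 3 largest differences. The results of 1 further list are not reported here. Same-numbered arrays deviated together in all 6 pairs of clones (r from 0.42 for H and M to 0.78 for B and G), so values with the replicate number as a replicate block are printed where they change a call or move a count by over 1.5 times. The titles give these numbers but not what they mark. Alternatives were scaling, probe-set choice, blocks, and leaving out arrays or clones. Comparisons of single knockdown with single control clones were added after the data were seen.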

Additional observations from a re-analysis of the deposited data

Results flagged for a closer look

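In 76 groups of 4 arrays (38 genes in 2 conditions), 2 had an extreme array whose gap to its neighbour, divided by the range, passed the limit of 0.829, and chance alone passes it in about 1 group of 20. CAV1 read 5.06 in knockdown array G1 against 5.10 to 5.11 in the other 3 knockdown arrays, at the 10.5th percentile of signal. ITGB2 read 6.27 in control array M2 against 5.92 to 5.94 in the other 3 control arrays, at the 18.5th percentile.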

How the results depend on the processing

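Of the 3 called genes, all kept their call without trend, after quantile normalization, without a clone block, over probe sets at or above the median level, and without any array of clones H or M. Of the 75 probe sets of all 38 genes, 7 were called, beside 2.96% of all probe sets. The count of called genes was 1 to 14 leaving out an array, 1 without clone B or clone G, 18 without clone H, 6 without clone M, and 0 by limma with clone means or within replicate 1 or 2 alone, where 3512, 3403 and 2850 probe sets had an unadjusted p under 0.05. ITGB1 missed the threshold as the median of its probe sets (-0.30), with clone means (-1.16) and within replicate 1 (-1.02) or 2 (-1.31). TNS3 missed it without clone B (-1.74) or clone G (-2.11), with clone means (-1.92) and within replicate 1 (-1.23) or 2 (-2.62), and ranged from -2.18 to -1.63 leaving out an array. The count for H minus M was 1 over probe sets at or above the median level, beside 0.27% of those probe sets. It was 5 with the replicate block, beside 6.92%, and 0 to 3 leaving out an array, beside 0.0585% to 0.927%. The count for replicate 2 minus replicate 1 was 1 over probe sets at or above the median level, beside 23.3% of those probe sets. It was 1 to 9 leaving out an array, beside 3.44% to 16.4% of all probe sets. The counts for G minus B and for the difference of the knockdown effect between replicate numbers were 0 under each alternative run. Uncalled genes changed sign: with the median of probe sets ITGB4 (-0.0135), PARVA (0.0725) and PTK2 (0.0148), after quantile normalization ITGA5 (0.0007), ITGAL (0.0084) and ITGAX (0.0296), within replicate 1 ITGA7 (0.14) and ITGAV (0.24), and within replicate 2 CSRP1 (0.0272), ITGA1 (-0.39), ITGA10 (0.0484), ITGA3 (0.0194), ITGA5 (0.0847), ITGA8 (0.0621), ITGAX (0.104) and ITGB4 (-0.0195). Without clone B these were CSRP1 (0.0151), ITGA1 (-0.0067), ITGA8 (0.0386) and ITGAX (0.0742), without clone G ITGA5 (0.0060) and ITGAV (0.0513), and without clone H ITGA1 (-0.29), ITGAL (0.0010) and PTK2 (0.0017). Without clone M they were ACTN4 (0.0036), ARHGEF6 (0.0783), CSRP1 (0.22), ITGA2 (0.0675), ITGA4 (0.0841), ITGA5 (0.107), ITGA7 (0.0628), ITGAM (0.0200), ITGAV (0.16) and PXN (0.0224). Leaving out an array gave ranges across 0 of -0.15 to 0.0885 for CSRP1, -0.0681 to 0.0651 for ITGA5, -0.0641 to 0.0184 for ITGAL, -0.19 to 0.23 for ITGA1, -0.099 to 0.0130 for ITGA3, -0.13 to 0.0469 for ITGA8, -0.16 to 0.15 for ITGAV, -0.0783 to 0.0079 for PTK2 and -0.075 to 0.0519 for ITGAX. The cause was not tested. The test of the knockdown effect between replicate numbers without a whole clone could not be fitted. With 2 clones per condition, clone and construct are separated only as far as these clones allow, and signals of dim probe sets may be background.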
